A study of Arabidopsis thaliana with 9 samples.

Results

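Among the genes measured in detached Arabidopsis leaves treated with brevicompanine C, 42 listed under a locus name had a low signal at 6 h. At 48 h their signal lay near that of control. A locus name gives the chromosome and a serial number, as in AT5G56100, and says nothing of function. The 42 were chosen by the array values themselves, from 14745 genes with such a name among 16550 measured. A gene was taken when its mean log2 signal at 6 h lay at least 2 below control, its mean at 48 h lay within 0.5 of control, and all 3 arrays at 6 h lay below the other 6 arrays. Values of these genes in the 3 groups are therefore a description of what was chosen, and no test is attached to them.

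BrvC, as the labels write it, belongs to the brevicompanines, which are alkaloids made by fungi. Leaves of Col-0 plants aged 30 days were cut and kept in the dark in MS medium with 50 µM BrvC for 6 h or 48 h, and control leaves were given 0.05% DMSO. Each sample held 10 to 15 leaves, so that leaves were pooled, and each group of 3 arrays came from samples that the labels call biological replicates. All groups shared the ecotype, the age and the detachment. The plants had 4 weeks in soil, with 16 h of light and 8 h of dark, at 21 °C by day and 19 °C by night. A DMSO share is given for the control leaves alone. The labels give 1 control group and not its hours in the dark. BrvC can therefore not be told apart from time in darkness or from time of day in the values at 6 h or at 48 h. No sample is labelled as taken before treatment. Words such as fell, rose, back, regained and returned therefore compare group means and follow no leaf over time.

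A detached leaf in the dark makes no sugar by photosynthesis and lives on its stores. When sugar runs short, plant cells are known to break down amino acids in mitochondria, among them lysine and the branched-chain amino acids, and to take apart their own contents by autophagy, in which ATG8 proteins coat the membrane that wraps the cargo. Lysine breakdown starts with 1 protein that carries both the lysine-ketoglutarate reductase and the saccharopine dehydrogenase activity.

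Arrays of 1 group correlated over all genes at 0.978 to 0.984 in control, 0.989 to 0.993 at 6 h and 0.986 to 0.989 at 48 h. Leaf tissue was checked by 6 measured mesophyll genes of 16 listed, which averaged a log2 signal of 8.68 to 8.90 on the control arrays, 7.95 to 8.34 at 6 h and 6.93 to 7.27 at 48 h. Measured root genes (2 of 5) averaged 2.84 to 3.04 in control. The mesophyll genes did not move alike at 6 h, where 3 of 6 were called lower. PSAN went from 8.56 in control to 6.51, PSBY from 7.64 to 6.34, RCA from 9.90 to 9.32 and PSAE1 from 10.11 to 9.82. PRK went from 6.29 to 6.59 and PSBW from 10.08 to 10.17. The guard cell genes moved apart at 6 h, FAMA from 5.70 in control to 6.90 and 6.32 at 48 h, and GC1 from 8.57 to 7.64 and 7.60, so that their average of 6.89 to 7.39 in control, 7.23 to 7.32 at 6 h and 6.73 to 7.11 at 48 h stands for neither. The part of these shifts in the values below was not tested, and in whole leaves fewer cells of a type and less RNA per cell cannot be told apart. Of all 16550 genes, 27.4% were called at 6 h by limma at an adjusted p of 0.05, 13.2% lower and 14.2% higher. At 48 h 10.6% were called, 5.22% lower and 5.43% higher, and between 48 h and 6 h 20.3%, 10.7% lower and 9.62% higher at 48 h. That split depends on scaling, since 51.9% of the calls were higher as deposited, 17.3% after each array was centred on its median and 34.1% after renewed quantile normalization. The same shares were 51.0%, 23.1% and 33.6% at 48 h, and 47.4%, 66.0% and 55.8% for 48 h against 6 h. The median difference of all genes at 6 h was -0.10 as deposited, -0.46 after centring and -0.20 after quantile normalization, and the median over the 42 members was -2.46, -2.82 and -2.58 in the same order.

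The 42 members had 6 h differences from -3.87 to -2.03, which is 14.7-fold to 4.08-fold lower signal, with a median of 5.50-fold. At 48 h their differences from control ran from -0.49 to 0.32, with a median of -0.19 against -0.06 over all genes. That median was -0.38 after centring, where all genes had -0.25, and -0.25 after quantile normalization, where all genes had -0.12. It was -0.28 without control replicate 1 and -0.09 without control replicate 3. In 32 members the 48 h mean was below the control mean and in 10 above it. In each member the 48 h mean exceeded the 6 h mean by 76.5% to 110% of the size of the 6 h difference. The median of this share, called regained below, was 94.2%, and it was over 90% in 29 members. The limits of the choice, -2 at 6 h and 0.5 at 48 h, force a high share for every member. These shares are therefore a description of the choice. The smallest distance between the highest 6 h array and the lowest of the other 6 arrays was 1.12, in AT3G52920. Such a separation, which the choice required, was found for 12.1% of all genes, a 6 h difference of -2 or less for 1.44%, and a 48 h mean within 0.5 of control for 79.4%.

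**Figure D1:**
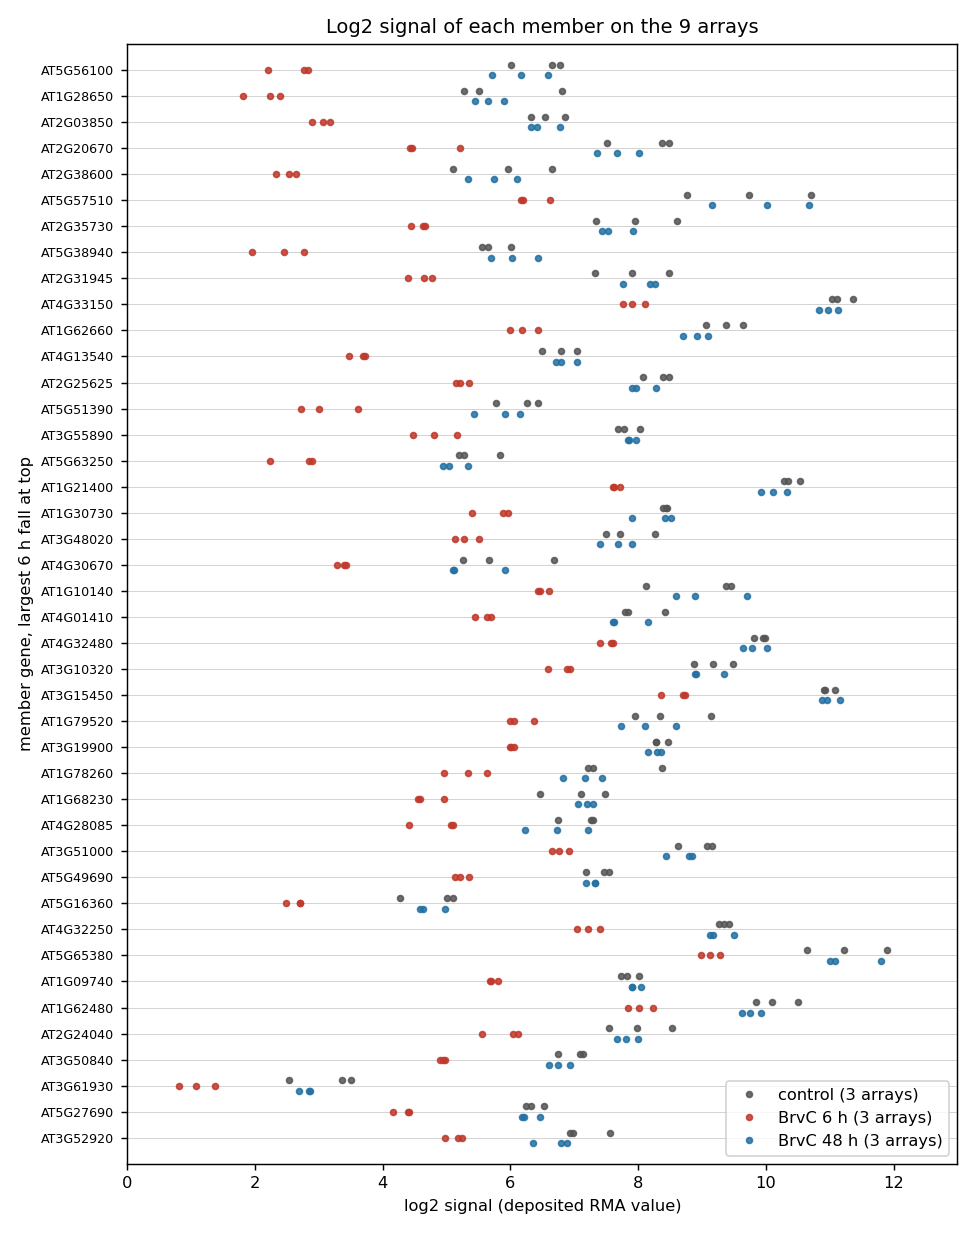
Log2 signal (horizontal axis) of each of the 42 members (rows, largest 6 h difference at the top) on the 9 arrays, 1 point per array, grey for control, red for BrvC 6 h and blue for BrvC 48 h. The red points lie to the left of all others in every row, as the choice required, and the grey and blue points overlap in 41 of 42 rows.

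Only AT4G33150 of the 42 carries a name for its function in the reference table, as the bifunctional lysine-ketoglutarate reductase and saccharopine dehydrogenase (LKR/SDH) that opens lysine breakdown. Its control arrays gave log2 signals of 11.36, 11.11 and 11.04, followed by 7.77, 7.90 and 8.11 at 6 h and 11.13, 10.97 and 10.83 at 48 h. The control and 48 h arrays overlapped, and the 6 h arrays lay 2.72 below the nearest of them. The 6 h difference was -3.24 (SE 0.17), a 9.47-fold lower signal, and the 48 h difference was -0.19 (SE 0.17). The arrays of each group stood close together, with an SD of 0.17 in control, 0.17 at 6 h and 0.15 at 48 h (n = 3 each).

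Another 2 members were in lists of breakdown and starvation genes. AT1G21400, from the list of branched-chain amino acid breakdown, had 10.35, 10.53 and 10.29 in control, 7.62, 7.72 and 7.61 at 6 h, and 10.33, 10.11 and 9.93 at 48 h. Its 6 h arrays lay close together, with an SD of 0.06, and the difference was -2.74 (SE 0.17) at 6 h and -0.27 (SE 0.17) at 48 h. AT3G15450, from the list of genes linked to darkness and sugar starvation, had 10.93, 11.08 and 10.91 in control, 8.71, 8.36 and 8.73 at 6 h, and 11.16, 10.95 and 10.88 at 48 h. Here the 48 h mean was back at the control mean, with a difference of 0.02 (SE 0.17), after -2.37 (SE 0.17) at 6 h.

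For the other 39 members the sources used here give no name or role, and they are described by their values, from the largest 6 h difference down. AT5G56100 had the largest, with 6.77, 6.65 and 6.01 in control, 2.77, 2.21 and 2.83 at 6 h, and 6.59, 6.16 and 5.72 at 48 h. That is a 14.7-fold lower signal at 6 h (-3.87, SE 0.27) and a difference of -0.32 (SE 0.27) at 48 h, where 2 of the 3 arrays lay within the control range and replicate 3 below it. AT1G28650 had 5.28, 5.51 and 6.81 in control, 2.39, 2.24 and 1.81 at 6 h, and 5.65, 5.44 and 5.90 at 48 h. Its controls were spread, with an SD of 0.83 and replicate 3 well above the others, and the difference at 6 h was -3.72 (SE 0.33). AT2G03850 had 6.85, 6.54 and 6.33 in control, 3.06, 2.89 and 3.17 at 6 h, and 6.78, 6.42 and 6.32 at 48 h. It showed the widest gap of all members between the 6 h arrays and the rest, 3.15, and had regained 98.0% of its difference at 48 h.

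AT2G20670 had 8.38, 8.48 and 7.51 in control, 4.46, 4.43 and 5.21 at 6 h, and 8.01, 7.67 and 7.36 at 48 h. Its 48 h arrays overlapped the controls, with replicate 3 below all of them, and with a difference of -0.44 (SE 0.29) after -3.42 (SE 0.29) at 6 h. AT2G38600 had 5.11, 5.97 and 6.65 in control, 2.54, 2.64 and 2.33 at 6 h, and 5.33, 5.74 and 6.11 at 48 h. AT5G57510 had 8.77, 9.73 and 10.70 in control, 6.20, 6.17 and 6.62 at 6 h, and 9.16, 10.02 and 10.67 at 48 h. In both of these genes the control and 48 h arrays of the same replicate number stood in the same order, with a control SD of 0.77 in AT2G38600 and 0.97 in AT5G57510. Both had a 6 h difference of -3.40, with an SE of 0.32 and 0.43.

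AT2G35730 had 7.34, 8.61 and 7.95 in control, 4.44, 4.64 and 4.66 at 6 h, and 7.43, 7.53 and 7.92 at 48 h. The 6 h arrays were tight and the controls spread, with a difference of -3.38 (SE 0.27). AT5G38940 had 5.55, 5.65 and 6.01 in control, 2.77, 1.95 and 2.46 at 6 h, and 6.44, 6.03 and 5.69 at 48 h. It had the highest 48 h mean relative to control among the members, with a difference of 0.32 (SE 0.24), and its 48 h arrays still overlapped the controls. AT2G31945 had 7.33, 8.49 and 7.90 in control, 4.65, 4.40 and 4.78 at 6 h, and 7.77, 8.27 and 8.18 at 48 h. All 3 of its 48 h arrays lay inside the control range.

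AT1G62660 had 9.06, 9.64 and 9.38 in control, 6.44, 6.19 and 6.00 at 6 h, and 8.71, 9.09 and 8.93 at 48 h. It had regained 85.9% of its 6 h difference of -3.15 (SE 0.20), and 2 of its 3 arrays at 48 h lay below every control. AT4G13540 had 7.04, 6.80 and 6.49 in control, 3.47, 3.70 and 3.72 at 6 h, and 7.05, 6.80 and 6.72 at 48 h. Its difference was -3.15 (SE 0.19) at 6 h and 0.08 (SE 0.19) at 48 h. AT2G25625 had 8.07, 8.48 and 8.39 in control, 5.21, 5.15 and 5.36 at 6 h, and 7.97, 7.90 and 8.28 at 48 h. In AT5G51390 the control arrays gave 5.78, 6.43 and 6.26, the 6 h arrays lay between 2.72 and 3.62, and the 48 h arrays gave 5.92, 5.43 and 6.15. This gene had the most spread 6 h arrays of all members, with an SD of 0.46, against 0.11 in AT2G25625.

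The 14 largest 6 h differences, from AT5G56100 to AT5G51390 with AT4G33150 among them, and that of AT3G55890 (-3.02) made up the 15 members that were lower by over 8-fold. Their control means ran from 5.74 to 11.17 and those of the other 27 members from 3.14 to 11.26. At 6 h, 11 of 42 members had a mean signal below the median of all genes on all arrays, 3.82. Differences of low signals can be compressed by RMA, so that for these genes the fold may be understated, which was not tested. AT3G61930 had the lowest signals, 2.53, 3.37 and 3.51 in control, 1.08, 0.81 and 1.37 at 6 h, and 2.87, 2.69 and 2.84 at 48 h.

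Some of the remaining members, picked after their values were seen, show how far replicates varied. In AT3G19900 the arrays of each group nearly coincided, with 8.28, 8.47 and 8.28 in control, 6.06, 6.01 and 5.99 at 6 h, and 8.36, 8.30 and 8.16 at 48 h. AT1G30730 was as even in control, with 8.45, 8.39 and 8.44, and had 5.88, 5.97 and 5.40 at 6 h and 8.51, 7.90 and 8.42 at 48 h. The control SD was 0.11 in AT3G19900 and 0.03 in AT1G30730, and the 6 h differences were -2.32 and -2.68. AT1G10140 lay at the other end, with 8.13, 9.45 and 9.38 in control, 6.60, 6.43 and 6.47 at 6 h, and 8.60, 8.89 and 9.71 at 48 h. AT5G65380 was alike, with 11.23, 10.65 and 11.89 in control, 9.12, 9.28 and 8.98 at 6 h, and 11.00, 11.08 and 11.81 at 48 h. In these genes the control SD was 0.75 and 0.62, and the 6 h SD was 0.09 and 0.15.

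The other members named here for the first time had 6 h differences of -2.78 for AT5G63250, -2.52 for AT3G48020, -2.43 for AT4G01410, -2.39 for AT4G32480, -2.37 for AT3G10320, -2.34 for AT1G79520, -2.32 for AT1G68230 and -2.23 for AT4G28085. Those of AT3G51000 (-2.18), AT5G49690 (-2.17), AT5G16360 (-2.17), AT4G32250 (-2.13), AT1G09740 (-2.13), AT1G62480 (-2.13) and AT2G24040 (-2.12) were closer to the limit. Of these 15 genes, AT1G68230 (0.17) and AT1G09740 (0.10) were the ones with a 48 h mean above control, and AT1G62480 (-0.38) had the lowest 48 h difference. The 3 members that had regained the smallest share of their 6 h difference at 48 h were AT3G52920 (76.5%), AT1G78260 (78.9%) and AT4G30670 (80.3%).

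Just inside the limit of -2 were AT3G50840 (-2.06), AT3G61930 (-2.05), AT5G27690 (-2.05) and AT3G52920 (-2.03). Just outside it, and meeting the other conditions, were AT1G26390 (-1.94), AT5G48770 (-1.93), AT5G38710 (-1.92) and AT3G51090 (-1.9). The limit of 0.5 at 48 h was met most narrowly by AT4G30670 (-0.49), AT1G78260 (-0.49), AT3G52920 (-0.48) and AT1G62660 (-0.44). It was missed most narrowly by AT4G16260 (0.52), AT1G15900 (-0.53), AT1G60110 (-0.53) and AT1G23120 (0.54). AT3G52920 was the only member whose 48 h arrays, 6.36, 6.88 and 6.80, all lay below its controls, 6.93, 6.98 and 7.56. Over all genes the 48 h and control arrays did not overlap for 25.1%, and nothing is read from the count of 1 in 42, since the choice used that comparison.

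Large differences at 6 h mostly had not returned to control at 48 h. Of 195 locus-named genes with a 6 h difference of -2 or less, 175 had all 6 h arrays below the other 6. Among these 175, 42 (24.0%) lay within 0.5 of control at 48 h and are the members, 116 lay lower by 0.5 or more and 17 lay higher by 0.5 or more. Of all 14745 locus-named genes, 79.6% lay within 0.5 of control at 48 h, and most of them had small differences at both times. The mirrored choice, with a 6 h difference of at least 2, held 186 genes, of which 61 lay within 0.5 of control at 48 h. The 6 h and 48 h differences share their control arrays, and no relation between them is drawn from these counts.

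**Figure D2:**
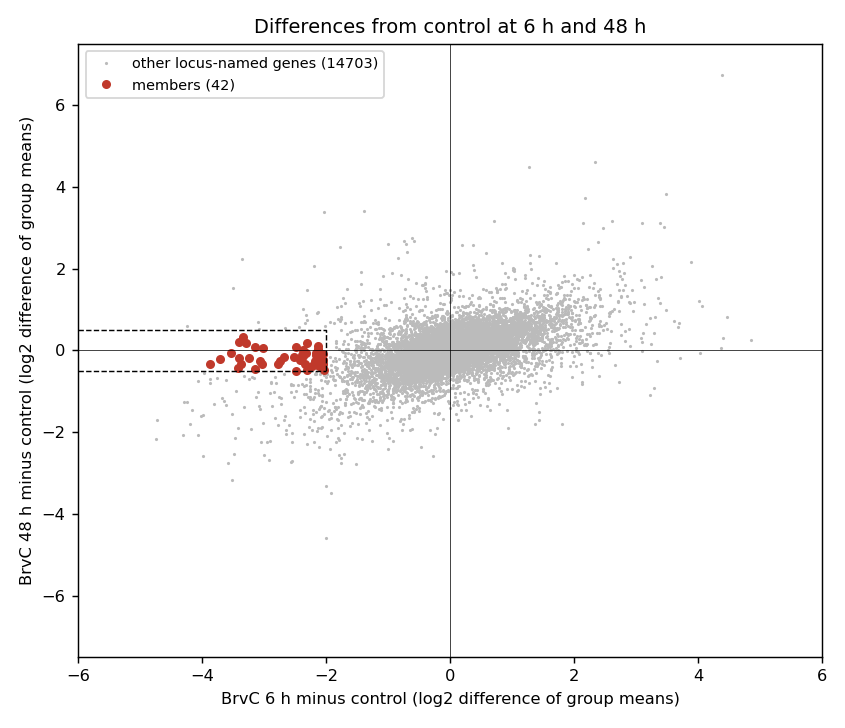
Difference from control at 6 h (horizontal axis) and at 48 h (vertical axis), both as log2 differences of group means, for all 14745 locus-named genes. Members (42, red) fill the dashed box that the choice defined, and most other genes with a 6 h difference of -2 or less lie below the box.

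No limit was set on the spread among replicates itself, but the required separation of the 6 h arrays bears on it in all 3 groups. The members also had high signals, with a median control percentile of 89.7 among all genes. No genes of like signal were set beside them. The spread was highest in control for 29 of 42 members (69.0%), at 48 h for 7 and at 6 h for 6. For 49.7% of all genes it was highest in control. Over members the control SD had a median of 0.34, the 6 h SD 0.18 and the 48 h SD 0.22 (n = 3 arrays each), beside 0.26, 0.17 and 0.21 over all genes. Control replicate 1 was the lowest control array for 26 of 42 members (61.9%), against 28.8% of all genes. The median over members was 7.55 on that array and 7.91 and 7.98 on the other control arrays, while the median over all genes was 3.80, 3.85 and 3.81. At 6 h the medians over members were 5.19, 5.06 and 5.30, and at 48 h 7.70, 7.68 and 7.87. That the 6 h medians lie below those of every other array was fixed by the choice.

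Control and 48 h arrays of the same replicate number tended to stand high or low together. The 3 arrays stood in the same order in both groups for 15 of 42 members (35.7%), beside 28.1% of all genes. For control and 6 h this held for 1 of 42 members (2.38%), beside 16.3% of all genes. Across the 42 members, the deviations from the group means of control and 48 h correlated at 0.70 for number 1, 0.30 for number 2 and 0.75 for number 3. Between control and 6 h the same correlations were -0.05, -0.09 and -0.08. These are correlations across genes that share 1 pair of arrays, given as a description, and the labels do not say what a replicate number shares.

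**Figure D3:**
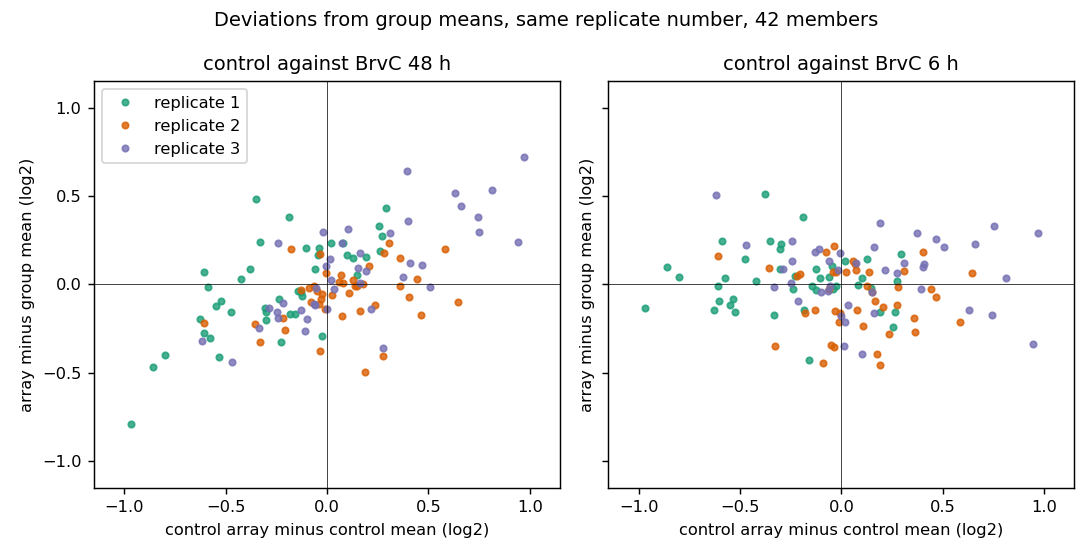
Deviation of each array from its group mean, in log2 units, for the 42 members, with control on the horizontal axis and BrvC 48 h (left) or BrvC 6 h (right) of the same replicate number on the vertical axis. Points rise from lower left to upper right in the left panel (0.70, 0.30 and 0.75 for numbers 1, 2 and 3) and show no such slope in the right panel.

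The members were spread over all 5 nuclear chromosomes, with 10, 7, 9, 7 and 9 on chromosomes 1 to 5, read from their locus names. That is 23.8%, 16.7%, 21.4%, 16.7% and 21.4% of the members, beside 26.2%, 15.3%, 20.5%, 14.7% and 23.3% of all locus-named genes. No member was the next protein-coding gene of another, by the order in the reference table. Of the 84 genes next to a member, 55 were measured.

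At 6 h, 14 of these 55 neighbours fell and 5 rose (limma, Benjamini-Hochberg adjusted over all 16550 genes), which is 25.5% lower beside 13.2% of all genes. Their median difference was -0.19, beside -0.10 over all genes. After each array was centred, 27 of 55 neighbours were lower (49.1%), beside 41.5% of all genes, and after renewed quantile normalization 16 (29.1%), beside 21.1%. Of the 35 members with a measured neighbour, 11 had 1 or both of them among the 14. Of the 14, AT3G55900 was the only one whose span overlaps that of its member, AT3G55890, in the reference table.

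The neighbours with the largest differences were named after their values were seen. AT3G15440, next to the starvation-list member AT3G15450, had 6.75, 6.55 and 6.42 in control, 3.07, 2.25 and 2.95 at 6 h, and 5.39, 5.33 and 5.05 at 48 h. It fell at 6 h by 3.82 (SE 0.22, limma adjusted p = 7.03e-08), more than the member itself, and its 48 h arrays lay between the other groups. On the other side of AT3G15450, AT3G15460, whose span overlaps that of the member, rose by 1.48 (SE 0.17) at 6 h. SKP2A, next to AT1G21400 and known as an F-box protein that binds auxin, had 6.65, 6.80 and 7.49 in control, 4.78, 5.21 and 5.19 at 6 h, and 6.56, 7.02 and 7.19 at 48 h. It fell by 1.92 at 6 h (SE 0.24, limma adjusted p = 5.23e-05), and its 48 h and control arrays overlapped. The other neighbours with large falls were AT4G13530 (-1.86, SE 0.20), AT3G19910 (-1.56, SE 0.16) and AT1G28660 (-1.49, SE 0.15), next to AT4G13540, AT3G19900 and AT1G28650. Both neighbours of AT1G30730 fell at 6 h, with -1.07 (SE 0.26) for AT1G30720 and -0.91 (SE 0.24) for AT1G30740. The call of AT1G30740 was lost without 6 h replicate 3 (-0.70) or control replicate 2 (-0.71). Adjacent genes that are near copies may cross-hybridise, which makes their values uncertain. AT1G68238 (1.78, SE 0.20) and AT1G09750 (1.35, SE 0.20) rose at 6 h next to AT1G68230 and AT1G09740.

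**Figure D4:**
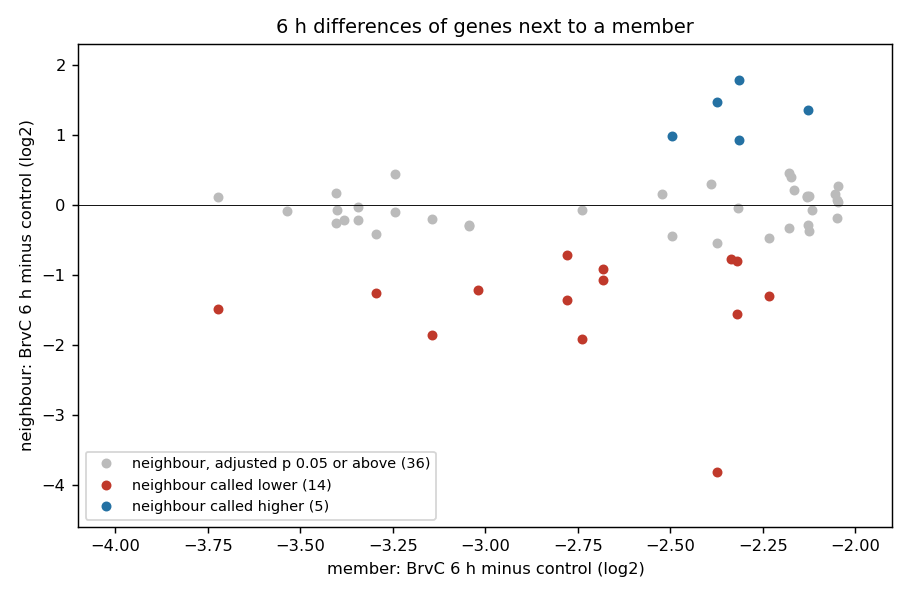
Difference from control at 6 h, in log2 units, of the 55 measured genes next to a member (vertical axis) against that of the member (horizontal axis). Of these neighbours 14 were called lower (red), 5 higher (blue) and 36 were not called (grey), and AT3G15440 is the lowest point, at -3.82.

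The lists of breakdown genes were drawn up from general knowledge and with earlier results of these data known, so that their direction is not independent evidence. Few of their genes could be named on this array. Branched-chain amino acid breakdown and its electron transfer proteins had 6 of 14 genes measured, with a median of -1.82 at 6 h beside -0.10 over all genes. Of the 6, 4 were called lower at 6 h, beside 13.2% of all genes. The member AT1G21400 is among the 4, and its fall was fixed by the choice. The 5 genes that are no members had a median of -1.27, and 3 of them were called lower. MCCB, a subunit of the carboxylase of leucine breakdown, fell from 9.74 ± 0.32 to 6.05 ± 0.16 (SD, n = 3; limma adjusted p = 6.22e-08) and stood at 8.98 ± 0.29 at 48 h. Its 48 h difference of -0.76 passed the test (limma adjusted p = 0.0322), a call lost without 48 h replicate 2 (-0.82) or 3 (-0.60), 6 h replicate 1 (-0.76) or control replicate 1 (-0.60) or 2 (-0.76). AT2G26800 fell by 1.27 at 6 h. ETFQO, which passes electrons from these pathways to ubiquinone, fell from 11.11 ± 0.13 to 8.75 ± 0.13 and stood at 10.99 ± 0.15 at 48 h. ETFALPHA (0.35) and D2HGDH (-0.48) did not pass the test at 6 h.

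All 3 measured genes of the other amino acid list, of 10, were called lower at 6 h, beside 13.2% of all genes. The member AT4G33150 is among them, and its fall was fixed by the choice. The other 2 genes of that list were called lower as well. ASPGB1, an asparaginase, fell from 7.54 ± 0.66 to 4.14 ± 0.28 (SD, n = 3) and stood at 6.45 ± 0.52 at 48 h, a difference of -1.09 (limma adjusted p = 0.0465). The call of ASPGB1 at 48 h was lost with array weights and without any single array other than 48 h replicate 3 and control replicate 1, and was smallest in size without control replicate 3, at -0.73. AT5G38710 fell from 9.83 ± 0.29 to 7.91 ± 0.12 (SD, n = 3) and stood at 9.35 ± 0.07 at 48 h. Of 3 measured genes among 23 on the list for darkness and sugar starvation, 2 were called lower at 6 h, beside 13.2% of all genes. They are the member AT3G15450 and AKINBETA1, a subunit of the energy-sensing SnRK1 kinase. The fall of AT3G15450 was fixed by the choice, and of the 2 other genes 1 was called lower. AKINBETA1 fell by 2.09 and at 48 h stood at -0.72 from control (limma adjusted p = 0.00973). BZIP53, a transcription factor on that list, had -0.41 (limma adjusted p = 0.131).

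Autophagy had 13 of 20 genes measured and no member among them. ATG8H and APG8A met the numeric conditions but carry a symbol, so that they could not be members. Of the 13, 7 were called lower at 6 h, beside 13.2% of all genes. The median of the 13 was -0.57 beside -0.10 over all genes. The ATG8 genes led, with -2.16 for ATG8H, -2.12 for APG8A and -1.68 for ATG8B. All 3 had control and 48 h means within 0.5 of each other (-0.35, -0.41 and -0.34). ATG8D (0.34) and ATG8C (-1.13, limma adjusted p = 0.0601) did not pass the test at 6 h. At 48 h ATG8D (0.75) and ATG8G (0.70) were the 2 autophagy genes called, both higher than control, beside 5.43% of all genes called higher. Neither was called after renewed quantile normalization, where 2 autophagy genes had an unadjusted p under 0.05 in limma. The count at 48 h was also 0 or 1 without 6 h replicate 1, any 1 of the 48 h replicates, control replicate 1 or control replicate 3, with 2 or 3 genes at an unadjusted p under 0.05.

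**Figure D5:**
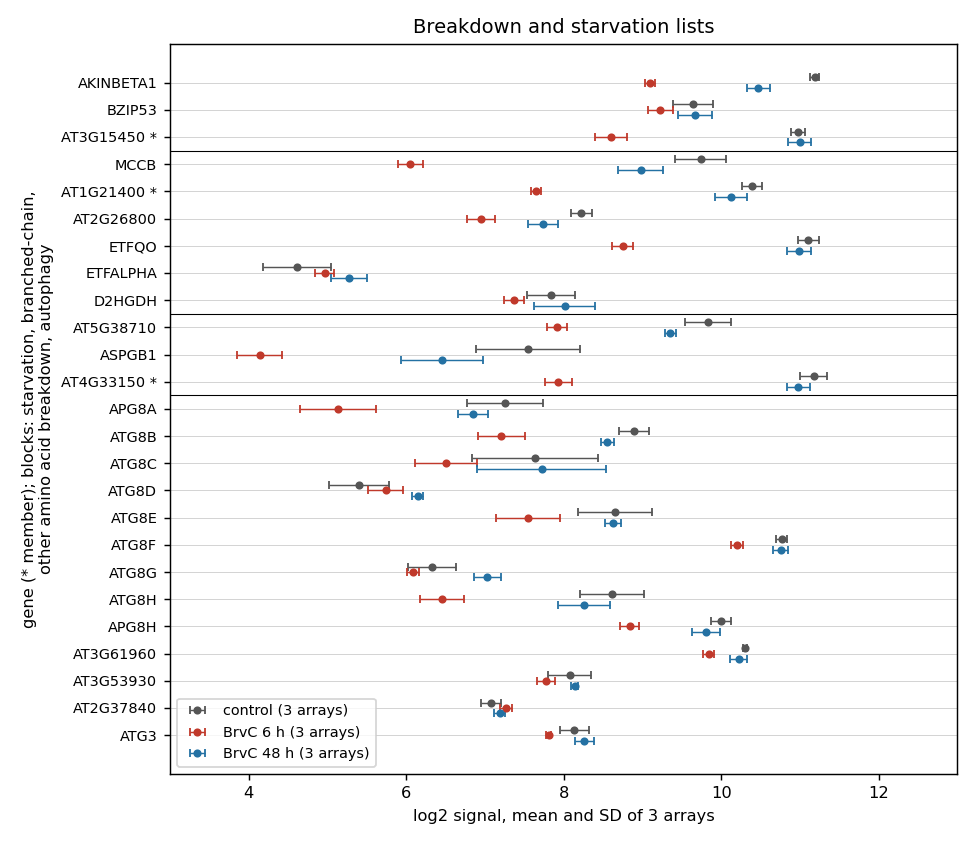
Mean log2 signal with SD of 3 arrays for the measured genes of the starvation, branched-chain, other amino acid breakdown and autophagy lists, in blocks from the top, grey for control, red for BrvC 6 h and blue for BrvC 48 h. An asterisk marks a member, and the 6 h mean lies lowest for MCCB, ETFQO, ASPGB1, ATG8H and both starvation genes that were called.

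Other lists moved differently at 6 h. All 7 measured hypoxia genes of 15 rose, led by AT5G66985 (3.48), AT3G10040, or HRA1 (2.80), and AT3G03270 (2.61), with a median of 2.34 beside -0.10 over all genes, of which 14.2% were called higher. Of 4 measured abscisic acid and cold genes, KIN2 (3.96) and COR15A (2.56) rose and COR47 fell (-0.75). The only measured senescence gene, SAG101 (0.34), and the only measured clock gene, GI (-0.33), did not pass the test at 6 h, and GI rose by 1.06 at 48 h. GI was called lower at 6 h after centring (-0.69). At 48 h 6 of the 7 hypoxia genes were called higher than control, beside 5.43% of all genes. The salicylic acid and jasmonate lists had no gene that could be named here.

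A further 12 genes that carry a symbol met the same numeric conditions as the members. They include the beta-glucosidases BGLU46 (-4.23 at 6 h) and BGLU16 (-2.06), the sugar transporter SWEET2 (-3.91) and the acetyltransferase CHAT (-2.83). ETFQO (-2.36), ALDH6B2 (-2.09), a dehydrogenase of valine breakdown, and the autophagy genes ATG8H (-2.16) and APG8A (-2.12) are also among them.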

How the data were processed

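The deposited value table holds log2 signals for 9 arrays, made with RMA by way of oligo and limma, per the submitters' processing notes, which give no versions of these. The genome build was not given in the sources used here, so that no coordinates are printed, and the reference table of assembly TAIR10.1 served for names and the order of genes. Of 38408 entries 16722 had 1 gene, 759 had several genes and were left out, and 20927 were not listed with a gene. The entry with the highest mean was used per gene, which left out 172 entries and kept 16550 genes, all of them tested. No member had a second entry of its own.

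Group means were compared by limma (version 3.58.1, R version 4.3.3) over all 9 arrays at once, and adjusted p-values are two-sided Benjamini-Hochberg values over 16550 genes, called at 0.05. The fit was tested on simulated data. SE is that of the fit. The members and lists were chosen with earlier results of these data known. The naming rule took the 14 largest 6 h differences, members in lists, genes nearest the limits, and up to 3 called genes per list. The remaining members, neighbours and uncalled list genes were chosen for naming with their values in view. The 3 arrays per group limit the precision. The p-values set a difference against the spread between these samples, which limma moderates by the spread of other genes. The main fit holds no replicate block.

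Deviations from group means of equal replicate numbers correlated over all genes at 0.302, 0.242 and 0.539 between control and 48 h, which pairs these groups by a limit of 0.1, at 0.034, -0.032 and 0.012 between control and 6 h, and at 0.102, -0.051 and -0.012 between 6 h and 48 h. Alternatives were a replicate block, scaling, filters, other limits, weights and leaving out single arrays.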

Additional observations from a re-analysis of the deposited data

Results flagged for a closer look

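For the list genes and neighbours below, which are no members, the 6 h and 48 h differences from control differed by the limma test of 48 h against 6 h. These genes were named for their 6 h differences or with their values in view, and the test uses the same 6 h arrays. Its p-values are therefore no independent evidence. Among the breakdown lists the 48 h value was higher than the 6 h value by 1.37 for AKINBETA1, 2.93 for MCCB, 2.24 for ETFQO, 2.32 for ASPGB1, 1.44 for AT5G38710, 1.81 for ATG8H, 1.71 for APG8A and 1.35 for ATG8B, with adjusted p of 0.000458 or lower for each (APG8A). Among neighbours of members it was higher by 2.498 for AT3G15440, 1.86 for SKP2A, 1.67 for AT4G13530, 1.00 for AT3G19910, 1.39 for AT1G28660, 2.19 for AT1G30720 and 1.33 for AT1G30740. The difference was -1.96 for AT1G68238, -1.55 for AT1G09750, -4.02 for KIN2 and -2.34 for COR15A. It was 1.39 for the clock gene GI, 0.95 for ATG8G and 0.79 for AT2G26800. AT3G55900, next to AT3G55890, had 0.73, a call lost without 48 h replicate 2 (0.61) or 6 h replicate 2 (0.69). AT3G10040 had -0.91, a call lost without 48 h replicate 2 (-0.68), 6 h replicate 1 (-0.89) or 6 h replicate 2 (-0.76). AT3G15460 had -0.60, a call lost without 48 h replicate 1 (-0.53), 6 h replicate 1 (-0.60) or 6 h replicate 2 (-0.50), and after centring (-0.44) or renewed quantile normalization (-0.46).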

How the results depend on the processing

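The 42 members became 106 with a 6 h limit of -1.5 and 19 with -2.5, 25 with a 48 h limit of 0.25 and 93 with 1, 54 with symbols included, and 127 over all entries of the value table, the last chosen after seeing the data. Without single arrays 39 to 47 genes met the conditions, and 23 of the 42 met them in all 9 such sets. Renewed quantile normalization gave 51 genes with 39 of the 42, and centring each array gave 62 with 29 of the 42 and moved the members' median at 6 h to -2.82. Without control replicate 1, 30 of the 42 members met the conditions. AT3G52920 met them in 3 of the 9 sets and AT1G78260 in 4. Limma called 3081 genes at 6 h, 921 at 48 h and 2083 for 48 h against 6 h at an adjusted p of 0.01, against 4531, 1762 and 3356 at 0.05. Over every entry it called 10484, 3824 and 6075, and after centring 8308 at 6 h. After centring 27 neighbours were lower at 6 h, and 12 to 15 without single arrays. The replicate block in the paired groups of control and 48 h alone gave 2312 calls at 48 h, that in all arrays 2134, and it moved no count of lists or neighbours at 6 h by over 1.5 times, with 8 autophagy genes and 14 neighbours. At 48 h the genes called were 0 of the autophagy list after quantile normalization (2 at an unadjusted p under 0.05, limma) and 2 of the branched-chain list with the replicate block. Without single arrays they were 0 to 2 for autophagy, 0 to 1 for branched-chain and 0 to 1 for other amino acid breakdown, against 2, 1 and 1 with all arrays. Low signals near the lower end of the scale limit the fold of members such as AT3G61930.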

Other observations

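Of the 20927 entries of the value table that are not listed with a gene, 68 (0.325%) met the numeric conditions of the members, beside 54 of the 16722 entries with 1 gene (0.323%) and 5 of the 759 with several genes (0.659%). These entries are unnamed here.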
